A study of Homo sapiens with 12 samples.

Results

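Rego-resistant SNU449-Axl- cells were compared with Rego-resistant SNU449 cells, 3 libraries against 3, which are 6 of the 12 libraries of the study. These 6 libraries were taken because they form the deposited table that sets both resistant populations side by side. SNU449 is a mesenchymal-like human hepatocellular carcinoma (HCC) cell line, and SNU449-Axl- is its derivative in which AXL was disrupted by CRISPR/Cas9. Both populations had been adapted to regorafenib (Rego), starting at 50% of the IC50 and ending at 2 times the IC50, and were given the drug after each passage. The doses were set relative to the IC50, so that the concentrations of both groups may differ. The control (naïve) SNU449 and SNU449-Axl- cells, again with 3 libraries each, had no resistance induced. The series describes the libraries of a group as technical triplicates. Each group is therefore 1 population, p-values cover the spread between libraries only, and Axl loss cannot be told apart from other differences between the populations. Whether SNU449-Axl- is 1 clone or a pool is not given in the sources used here. The comparison addresses which transcripts differ between resistant cells with and without Axl.

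AXL encodes a receptor tyrosine kinase of the TAM family, which it shares with TYRO3 and MERTK, and GAS6 is its ligand. In liver cancer, Axl is known for its link to epithelial to mesenchymal transition (EMT) and to tolerance of kinase inhibitors. Rego is a multikinase inhibitor directed against VEGF, PDGF and FGF receptors, KIT, RET and RAF kinases. Cells under such a drug can draw on other receptors, among them ErbB, IGF and FGF receptors, and on detoxifying enzymes that are controlled by the transcription factor NRF2.

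The RNA was sequenced from the 3′ ends of transcripts. A level below is the log2 of the deposited library value, which is a batch-corrected, variance-stabilized expression value. The smallest value in the table was 40, a level of 5.32, so that differences of weakly expressed genes are compressed. To show the uncompressed size, the mean normalized count of each group was solved from the authors' means in the 6 pair tables, as a value without error. The authors' means could be rebuilt from these solved counts with a median misfit of 0.14% over 12878 genes. The depth per library is unknown, and the authors' mean normalized counts of this table summed to 4.49e+06. Because bulk RNA was measured, fewer cells of a type and less RNA per cell cannot be told apart.

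The targeted gene itself separated both populations. AXL (ENSG00000167601.12, chr19:41219223-41261766, plus strand, GRCh38) had levels of 6.49, 6.73 and 6.49 in replicates 1, 2 and 3 of the resistant SNU449-Axl- cells and of 10.15, 9.92 and 10.15 in the resistant SNU449 cells. The groups were far apart without overlap, and the direction is that of the labels. The log2 difference was -3.50 (standard error 0.137, adjusted p = 1.23e-08 in limma with Benjamini-Hochberg adjustment), and the solved counts were 31.9 against 1160, a 36.2-fold lower value. A 3′ signal of AXL was thus counted in the resistant SNU449-Axl- cells, whereas the solved value of the control SNU449-Axl- cells was -0.842, which stands for no count. A count of reads at the 3′ end does not show whether the transcript is intact. The RefSeq window from 250 bases before to 50 bases after the first start site of AXL (GRCh38.p14, plus strand, chr19:41218973-41219272) is shown because the edited gene defines the comparison. It carries no capitals, as no motif was marked in it.
AXL: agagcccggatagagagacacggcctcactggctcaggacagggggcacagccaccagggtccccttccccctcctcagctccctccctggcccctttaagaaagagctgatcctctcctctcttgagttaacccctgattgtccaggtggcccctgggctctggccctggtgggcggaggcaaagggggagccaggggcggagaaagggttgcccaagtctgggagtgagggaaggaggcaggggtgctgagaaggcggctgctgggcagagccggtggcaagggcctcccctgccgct

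Of 14165 genes tested, 1160 were called at a Benjamini-Hochberg adjusted p under 0.05 in limma, which is 8.19% of all genes. Of these, 610 were higher (4.31% of all genes) and 550 lower (3.88%) in the Axl-deficient resistant cells. Larger differences were rarer. A difference of at least 1 on the log2 scale was found for 128 of the called genes (0.904% of all genes), 92 higher (0.649%) and 36 lower (0.254%). In total, 6053 genes (42.7%) had libraries that did not overlap between the groups, with 22.2% higher and 20.5% lower, and 3314 genes (23.4%) had an unadjusted p under 0.05. The median log2 difference over all genes was 0.01. The fit used the replicate number as a block, since the deposited deviations of same-numbered libraries mirror each other. It rested on all 3 replicate numbers. When 1 number was left out of both groups, limma called 0 genes each time, with 1756, 1976 and 2465 genes at an unadjusted p under 0.05 without replicate 1, 2 and 3, while all 1160 genes kept their sign. In a fit over all 12 libraries, 679 of 15601 genes were called for the same contrast (4.35%), 381 higher (2.44%) and 298 lower (1.91%), and the adjusted p of this fit is given below where it ended a call. The spike-in RNAs, which the authors counted beside the human genes, were lower in the Axl-deficient libraries, with a median log2 difference of -0.35 for the 14 with a mean normalized count of at least 30. Centring on them moved all genes up by 0.36. The share of higher genes among the calls then was 98.5% instead of 52.6%, and the differences below are relative to the bulk of all genes. Of the genes named below, FGF18, EPHB4, TEAD2, TPM1, MARVELD2, KRT80, ITGA5, PLAUR, IFITM2, RNF43, DLL3, TPX2, UBE2C, CDKN1C, PVR, NECTIN2 and BCAT2 were no longer called after this centring, and their log2 differences then lay between -0.34 and -0.05. Conversely, ERBB3, MERTK and AREG, which were not called in the main fit, were called after it.

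**Figure D1:**
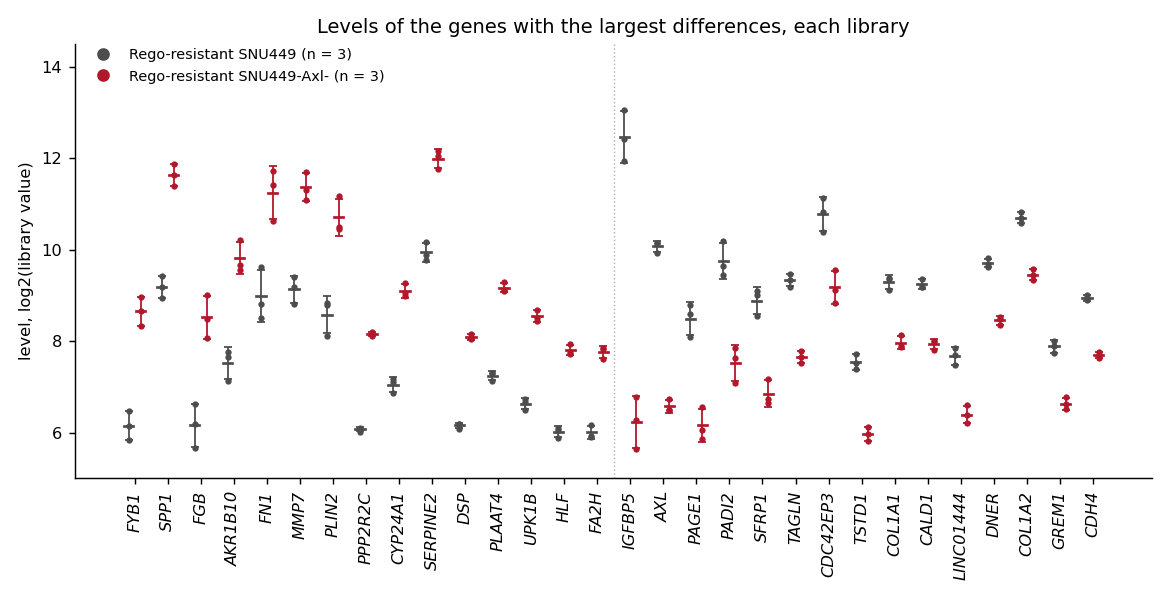
Levels (log2 of the library value, y axis) of 30 called genes without overlap between the groups, namely the 15 that rose most (left) and the 15 that fell most (right). Points are the 3 libraries of each group, horizontal bars the mean and vertical bars the SD. IGFBP5 and AXL show the widest gaps, and MMP7 and SPP1 are among the genes with the highest levels in SNU449-Axl- cells.

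The largest difference of all was that of IGFBP5, a secreted protein that binds insulin-like growth factors. Its levels were 6.29, 5.64 and 6.78 in the Axl-deficient libraries and 12.42, 13.06 and 11.93 in the Axl-proficient ones. The transcript was strong in resistant SNU449 cells and close to the floor of the scale in resistant SNU449-Axl- cells. The log2 difference was -6.23 (standard error 0.284, adjusted p = 4.44e-08). The gene is not in the table of the control cells, and in the 12-library table the Axl difference of the resistant cells was lower by 7.45 than that of the control cells (interaction adjusted p = 1.25e-08). Of 20 listed genes of the IGF system, 18 were in the table, and 5 were higher and 1 lower. This is 33.3% called, against 8.19% of all genes. The median over the list was -0.07. IGFBP3, another binding protein, rose by 1.63 (adjusted p = 6.27e-05), with solved counts of 1620 against 485. IGF1R, the receptor for IGF-I, rose by 0.71 (adjusted p = 0.00753) and IGFBP1 by 0.70 (adjusted p = 0.00535). The adjusted p of IGFBP1 was 0.0971 in the fit over all 12 libraries.

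The start window of IGFBP5 (GRCh38.p14, minus strand, chr2:216695500-216695799) is printed with that of CCN2 (minus strand, chr6:131951323-131951622), a target of the YAP and TEAD transcription factors that also fell. Capitals mark the TEAD letters GGAATG, searched on both strands.
IGFBP5: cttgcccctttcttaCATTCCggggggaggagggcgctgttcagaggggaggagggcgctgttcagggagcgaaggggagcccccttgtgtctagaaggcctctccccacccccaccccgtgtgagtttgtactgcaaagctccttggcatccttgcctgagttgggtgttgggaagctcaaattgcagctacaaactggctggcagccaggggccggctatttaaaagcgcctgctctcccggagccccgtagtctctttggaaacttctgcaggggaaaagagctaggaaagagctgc
CCN2: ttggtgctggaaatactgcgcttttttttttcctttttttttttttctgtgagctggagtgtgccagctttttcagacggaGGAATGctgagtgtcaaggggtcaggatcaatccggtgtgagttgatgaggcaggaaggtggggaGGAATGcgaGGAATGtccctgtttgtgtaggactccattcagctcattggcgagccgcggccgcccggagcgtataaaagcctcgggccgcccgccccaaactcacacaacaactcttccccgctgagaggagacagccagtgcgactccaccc
The CCN2 window held these letters 3 times on the printed strand, at bases -169, -104 and -95 from the start site. The IGFBP5 window held them once on the other strand, printed as CATTCC from base -235. Among all 35116 windows of the same length, 14% held the letters at least once. Of the 6 called genes on the YAP and TEAD list described below, 5 had a window, and the letters were found for 2, CCN2 and AXL, the latter in the window of another start site. On the whole list, 20 genes had a window, and 10 of them held the letters. The 14% counts single windows, whereas a gene was counted if any of its windows held the letters. A match is a description of the sequence only.

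None of the remaining TAM genes was called. GAS6 had a difference of -0.33 (adjusted p = 0.12), TYRO3 of -0.01 (adjusted p = 0.982) and MERTK of 0.17 (adjusted p = 0.374). For GAS6, the solved counts were 71.3 against 112. Its Axl difference in resistant cells was lower by 1.3 than that in control cells (interaction adjusted p = 0.0199). The sign of the GAS6 and TYRO3 values turned to 0.03 and 0.35 after centring on the spike-ins, and MERTK was then called.

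None of the ErbB receptors, the family of EGFR, was called. EGFR had levels of 9.65, 9.83 and 9.60 in the Axl-deficient and of 9.78, 9.61 and 9.83 in the Axl-proficient libraries, which overlapped. Its difference was -0.05 (adjusted p = 0.885), with solved counts of 851 against 900. ERBB2 had a difference of -0.05 (adjusted p = 0.841), with solved counts of 86.2 against 92.3. ERBB3 was at 0.34 (adjusted p = 0.0792) and ERBB4 at -0.35 (adjusted p = 0.0732). ERBB3 was weak, with solved counts of 27.6 against 10.3. ERBB4 was weak, too, with levels of 6.21 to 6.67 in all libraries. At such low levels the log2 differences are compressed, so that the value of -0.35 may understate the difference in counts. For ERBB4, the interaction with resistance was -1.02 (adjusted p = 0.0266). After centring on the spike-ins, EGFR, ERBB2 and ERBB4 turned to 0.31, 0.31 and 0.01, and ERBB3 was called. Of 9 ErbB receptors and ligands in the table, 1 was called, which is 11.1% against 8.19% of all genes. This was NRG1, a ligand of ERBB3 and ERBB4.

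NRG1 had levels of 9.17, 9.23 and 9.35 in the Axl-deficient libraries and of 8.47, 8.41 and 8.29 in the Axl-proficient ones. All Axl-deficient libraries lay above all others. The difference was 0.86 (standard error 0.132, adjusted p = 0.00142). The solved counts were 596 against 287, while the control populations had 614 in SNU449 and 603 in SNU449-Axl- cells. NRG1 lies in a window of 25 neighbouring genes on chromosome 8 with a median of 0.32. The EGFR ligands AREG and EREG were at 0.14 (adjusted p = 0.601) and -0.01 (adjusted p = 0.982). Only after centring on the spike-ins was AREG called. In the control cells, both were higher without Axl, by 1.98 (adjusted p = 0.00615) and 1.96 (adjusted p = 0.00303). The interaction terms of -2.31 (adjusted p = 0.00315) and -2.25 (adjusted p = 0.00705) were both called.

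Of the listed FGF receptors and FGF genes, 9 were in the table, and 3 were higher and 1 lower. This is 44.4% called, against 8.19% of all genes. FGFR1, a receptor for FGF2 and a kinase that Rego inhibits, had levels of 10.57, 10.61 and 10.37 in the Axl-deficient and of 8.95, 8.91 and 9.16 in the Axl-proficient libraries. The groups did not overlap, and the difference was 1.51 (standard error 0.142, adjusted p = 3.39e-05). It lies on chromosome 8, too, in a window with a median of 0.28. FGFR1 was also higher without Axl in control cells, by 1.20 (adjusted p = 0.019), and the interaction of 0.56 was not called (adjusted p = 0.333). FGFR4 rose by 0.59 (adjusted p = 0.0126), and FGF12, a member of the FGF gene family, rose by 0.60 (adjusted p = 0.0121). FGF18, a ligand near the floor of the scale, fell by 0.41 (adjusted p = 0.0289), and its adjusted p was 0.0503 without the trend. FGF2, also known as basic FGF, had a difference of -0.08 (adjusted p = 0.75) and solved counts of 534 against 568. Its value was 0.28 after centring on the spike-ins.

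Among the 9 kinases targeted by Rego in the table, FGFR1 was the only one called (11.1%, against 8.19% of all genes). Of 13 other receptor tyrosine kinases, IGF1R and ROR2 rose and EPHB4 fell (23.1% called). ROR2, a Wnt receptor, rose by 0.73 (adjusted p = 0.00108) and was lower without Axl in control cells (-0.82, adjusted p = 0.014). EPHB4, a receptor for ephrin-B2, fell by 0.70 (adjusted p = 0.00475), with solved counts of 48.8 against 135. The median of the window of EPHB4 on chromosome 7 was -0.34. After centring on the spike-ins its difference was -0.34 (adjusted p = 0.052).

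Of the listed EMT factors and mesenchymal markers, the largest falls were those of TAGLN and CALD1, which bind actin. TAGLN, which encodes transgelin, had levels of 7.79, 7.64 and 7.52 against 9.20, 9.33 and 9.46. CALD1, which encodes caldesmon, had levels of 8.0, 7.99 and 7.81 against 9.18, 9.19 and 9.37. For both genes, every Axl-deficient library lay below every Axl-proficient one. TAGLN fell by 1.68 (standard error 0.138, adjusted p = 1.15e-05) and CALD1 by 1.31 (standard error 0.133, adjusted p = 6.27e-05). In solved counts, TAGLN was at 885 in resistant SNU449 cells, with 62.5 in control SNU449, 126 in control SNU449-Axl- and 200 in resistant SNU449-Axl- cells. CALD1 was at 682 in resistant SNU449 cells and at 185, 213 and 205 in the other groups. TPM1, a tropomyosin, fell by 0.64 (adjusted p = 0.0469). In the fit over all 12 libraries the adjusted p was 0.0737 for TAGLN and 0.0978 for TPM1, and 0.0228 for CALD1.

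Of the 25 genes on that list, 20 were in the table, and 2 rose and 5 fell, with a median of -0.06. This is 35% called, against 8.19% of all genes. The 2 that rose were FN1 and S100A4. FN1, which encodes fibronectin, had levels of 11.42, 11.72 and 10.62 in the Axl-deficient libraries and of 8.81, 8.51 and 9.62 in the Axl-proficient ones. It rose by 2.27 (standard error 0.286, adjusted p = 0.000331). Resistant SNU449-Axl- and control SNU449 cells had the high solved counts, 2790 and 2590, and resistant SNU449 and control SNU449-Axl- cells the low ones, 585 and 435. S100A4, a calcium-binding protein, rose by 1.06 (adjusted p = 0.000289). It was also higher without Axl in control cells, by 1.09 (adjusted p = 0.0268).

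Collagens and collagen-processing enzymes changed in both directions. Of 29 members in the table, 3 rose and 7 fell, which is 34.5% called against 8.19% of all genes. The median over the list was 0.06. COL1A2, a chain of type I collagen, had levels of 9.45, 9.33 and 9.57 against 10.70, 10.82 and 10.58, and COL1A1, the other chain, of 7.89, 8.13 and 7.87 against 9.37, 9.13 and 9.39. Neither gene overlapped between the groups. They fell by 1.25 (adjusted p = 0.000137) and 1.33 (adjusted p = 7.94e-05), and COL5A1, a chain of type V collagen, by 1.16 (adjusted p = 0.000167). The adjusted p over all 12 libraries was 0.00151 for COL1A2, 0.151 for COL1A1 and 0.0774 for COL5A1. COL1A1 went the other way in the control cells, with a rise of 3.14 without Axl (adjusted p = 0.0449) and solved counts of 1720 against 168. COL6A1, a chain of type VI collagen, rose by 1.06 (adjusted p = 0.000491), the basement membrane chain COL4A1 by 0.58 (adjusted p = 0.0201) and the lysyl hydroxylase PLOD2 by 0.48 (adjusted p = 0.0334). The values of COL4A1 and PLOD2 were not called over all 12 libraries (adjusted p = 0.287 and 0.0646).

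**Figure D2:**
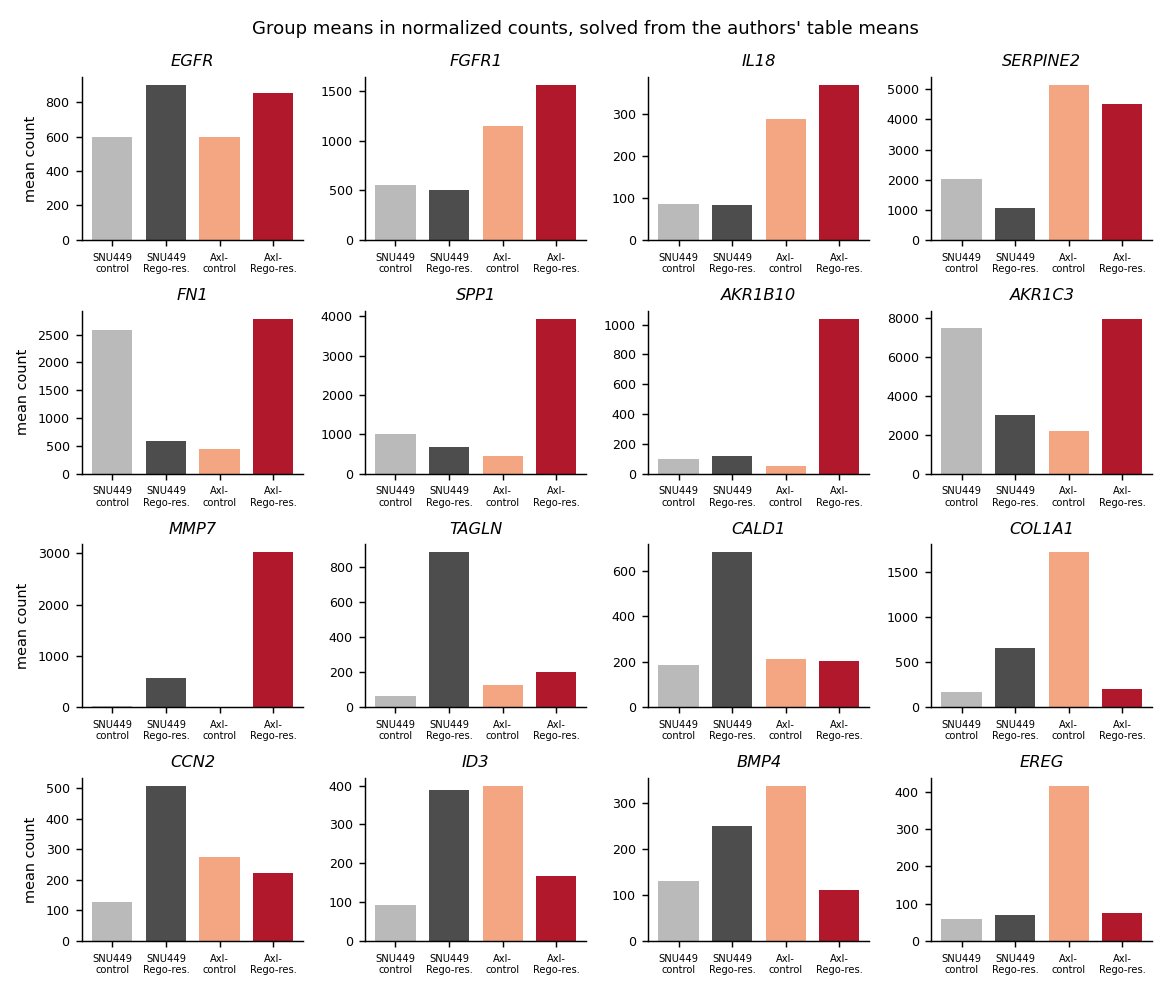
Solved mean normalized counts (y axis, linear from 0) of 16 genes in control SNU449, Rego-resistant SNU449, control SNU449-Axl- and Rego-resistant SNU449-Axl- cells; the bars carry no error because they are solved from table means. TAGLN, CALD1 and CCN2 stand highest in resistant SNU449 cells, SPP1, AKR1B10 and MMP7 in resistant SNU449-Axl- cells, and EGFR is 851 in resistant SNU449-Axl- against 900 in resistant SNU449 cells.

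Of 25 genes and targets of YAP and TEAD, the transcriptional effectors of the Hippo pathway, 1 rose and 5 fell, with a median of -0.18. This is 24% called, against 8.19% of all genes. AXL is itself a member of this list. CCN2, which encodes connective tissue growth factor, had levels of 8.10, 8.04 and 8.15 against 9.04, 9.10 and 8.99, without overlap. It fell by 0.95 (standard error 0.127, adjusted p = 0.000531). The difference between resistant and control cells was -2.25 (interaction adjusted p = 0.00572). TEAD2, a TEAD factor on chromosome 19, fell by 0.57 (adjusted p = 0.0193). Its window on that chromosome had a median of -0.45, and its adjusted p was 0.0679 over all 12 libraries. The member that rose was IGFBP3.

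In the TGF-beta and BMP pathway, 35 genes were in the table, and 4 rose and 3 fell, with a median of 0.04. This is 20% called, against 8.19% of all genes. The 3 lower genes belong to BMP signalling. GREM1, a secreted BMP antagonist, fell by 1.25 (adjusted p = 8.18e-05), with solved counts of 26.4 against 170. ID3, a BMP-induced inhibitor of transcription factors, fell by 0.89 (adjusted p = 0.0066) and the ligand BMP4 by 0.72 (adjusted p = 0.00326). ID3 and BMP4 were higher without Axl in control cells, by 1.64 (adjusted p = 0.00681) and 1.14 (adjusted p = 0.021). TGFBI, a matrix protein induced by TGF-beta, rose by 1.5 (adjusted p = 7.94e-05), and the receptors TGFBR2 and TGFBR3 rose by 0.73 (adjusted p = 0.00375) and 0.69 (adjusted p = 0.00381). TGFBR2 had an adjusted p of 0.0953 over all 12 libraries.

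Of 17 Notch pathway genes, 3 were called (17.6% against 8.19% of all genes), and they were lower (3.88% of all genes). One of the 3, DLL3, lies on chromosome 19, where 26% of the genes were called. DNER, a transmembrane protein related to Notch ligands, had levels of 8.54, 8.35 and 8.48 against 9.63, 9.81 and 9.68. HES1, a transcriptional repressor induced by Notch, had 6.46, 6.19 and 6.76 against 7.67, 7.94 and 7.38. Neither gene overlapped between the groups. DNER fell by 1.25 (adjusted p = 7.94e-05), HES1 by 1.19 (adjusted p = 0.000939) and the ligand DLL3 by 0.60 (adjusted p = 0.00906). Over all 12 libraries, the adjusted p of DNER was 0.102 and that of HES1 0.00469.

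Of 31 Wnt pathway genes, 3 rose and 2 fell (16.1% called, against 8.19% of all genes). SFRP1, a secreted Wnt antagonist, had levels of 6.73, 6.64 and 7.18 in the Axl-deficient and of 9.01, 9.09 and 8.56 in the Axl-proficient libraries. It was low in each Axl-deficient library and fell by 2.04 (standard error 0.177, adjusted p = 1.52e-05). Its solved counts were 54.8 in resistant SNU449-Axl- cells and between 380 and 525 in the other groups. RNF43, a ubiquitin ligase that removes Wnt receptors, fell by 0.54 (adjusted p = 0.0196). The receptor LGR4 rose by 0.82 (adjusted p = 0.00435), the antagonist SFRP4 by 0.73 (adjusted p = 0.0032) and CTNNB1, which encodes beta-catenin, by 0.70 (adjusted p = 0.0113).

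Epithelial genes gave a mixed picture. Of 16 epithelial junction genes in the table, 4 rose and 1 fell (31.2% called, against 8.19% of all genes). DSP, which encodes the desmosomal protein desmoplakin, had levels of 8.04, 8.16 and 8.06 in the Axl-deficient libraries and of 6.19, 6.09 and 6.19 in the Axl-proficient ones. It rose by 1.93 (standard error 0.122, adjusted p = 1.54e-06), and the interaction was 3.44 (adjusted p = 1.88e-05). TJP1, the tight junction protein ZO-1, rose by 1.03 (adjusted p = 0.000368), and MARVELD2, a tight junction protein as well, fell by 0.48 (adjusted p = 0.0284). Of 8 keratins, 1 rose and 1 fell (25% called). KRT8, a keratin of simple epithelium, rose by 1.22 (adjusted p = 0.000139) and KRT80 fell by 0.58 (adjusted p = 0.0246). In control cells, 3 of 8 keratins were called higher without Axl, with a median of 0.79. An interaction was called for 3 keratins. Neither KRT80 nor MARVELD2 was called over all 12 libraries (adjusted p = 0.389 and 0.0609). Of 24 laminins and integrins, 3 rose and 2 fell (20.8% called). ITGB4, the beta subunit of the laminin receptor of hemidesmosomes, rose by 0.92 (adjusted p = 0.0009, and 0.0591 over all 12 libraries), and LAMA3, a laminin chain, by 0.72 (adjusted p = 0.00219). ITGA5, a subunit of the fibronectin receptor, fell by 0.50 (adjusted p = 0.00897) from a low level.

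Of 27 listed hepatocyte markers, 12 were in the table, and 7 rose and none fell, with a median of 0.38. This is 58.3% of the members in the table, against 8.19% of all genes called and 4.31% called higher. Weakly expressed genes had been removed by the authors, so a marker may have entered through the population where it was higher. The share therefore describes the members kept only. FGB, the beta chain of fibrinogen, had levels of 8.06, 9.01 and 8.49 in the Axl-deficient libraries and of 6.62, 5.67 and 6.19 in the Axl-proficient ones. It rose by 2.36 (standard error 0.243, adjusted p = 6.27e-05), with solved counts of 377 against 6.47. FGG, the gamma chain, rose by 1.55 (adjusted p = 0.000257). In control cells, 8 of the hepatocyte markers were tested, with a median of 0.39 and 1 called higher without Axl. An interaction was called for 2 of the 12 markers. Of the marker lists of other cells, 1 of 11 endothelial, 3 of 13 leukocyte and 2 of 13 neural genes were in the table, and none of these was called. Albumin (ALB) was not among the genes tested. Of 5 fibroblast or stellate cell markers and of 5 cholangiocyte markers in the table, 1 each rose.

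The cholangiocyte marker that rose was SPP1, which encodes the secreted phosphoprotein osteopontin. Its levels were 11.64, 11.88 and 11.40 in the Axl-deficient libraries and 9.18, 8.94 and 9.42 in the Axl-proficient ones. It rose by 2.46 (standard error 0.171, adjusted p = 3.02e-06). The solved counts were 3940 in resistant SNU449-Axl- cells and 673, 1010 and 447 in resistant SNU449, control SNU449 and control SNU449-Axl- cells. Of 25 matrix proteases and inhibitors, 4 rose and 1 fell (20% called, against 8.19% of all genes). MMP7, the protease matrilysin, had levels of 11.31, 11.70 and 11.09 against 9.19, 8.80 and 9.40, without overlap. It rose by 2.24 (standard error 0.189, adjusted p = 1.44e-05). In solved counts MMP7 was at 3020 and 566 in the resistant populations and at 16 in control SNU449 cells. The protease inhibitor SERPINE2 rose by 2.05 (adjusted p = 1.05e-05), and PLAUR, the urokinase receptor on chromosome 19, fell by 0.53 (adjusted p = 0.0294, and 0.157 over all 12 libraries).

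The start window of MMP7 (GRCh38.p14, minus strand, chr11:102530698-102530997) is shown as that of a strongly rising gene, together with the window of GCLM (minus strand, chr1:93909381-93909680), a glutamate cysteine ligase subunit among the NRF2 targets, which was chosen after its values were seen. Capitals mark the AP-1 letters TGANTCA in MMP7 and the core TGACNNNGC of the antioxidant response element in GCLM, searched on both strands, where N stands for any base.
MMP7: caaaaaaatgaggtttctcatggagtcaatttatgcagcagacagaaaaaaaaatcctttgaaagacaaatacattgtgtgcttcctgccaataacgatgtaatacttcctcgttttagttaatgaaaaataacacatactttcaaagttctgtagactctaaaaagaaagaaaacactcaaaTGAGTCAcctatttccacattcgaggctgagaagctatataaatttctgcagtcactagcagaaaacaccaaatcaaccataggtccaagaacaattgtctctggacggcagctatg
GCLM: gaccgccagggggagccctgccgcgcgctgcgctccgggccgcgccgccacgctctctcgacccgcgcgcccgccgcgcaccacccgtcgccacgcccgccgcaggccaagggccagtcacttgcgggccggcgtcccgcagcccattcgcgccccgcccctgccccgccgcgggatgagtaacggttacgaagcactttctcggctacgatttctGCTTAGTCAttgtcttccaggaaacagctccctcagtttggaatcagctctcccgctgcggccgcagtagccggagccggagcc
The MMP7 window held its letters once, from base -67 and in the same place on both strands. The GCLM window held its letters once on the other strand, printed from base -34. Of all 35116 windows, 7.71% held the AP-1 letters and 13.3% the antioxidant core, and the 2 sets of letters can share bases. Of the 10 NRF2 targets called, 7 had a window, and GCLM was the one with the core in it. On the whole NRF2 list, 25 genes had a window, and 5 of them held the core in any window.

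Of 35 NRF2 targets and antioxidant genes in the table, 10 rose and none fell, which is 28.6% called against 8.19% of all genes, with a median of 0.35 against 0.01 for all genes. AKR1B10, an aldo-keto reductase, had levels of 9.56, 10.21 and 9.67 in the Axl-deficient libraries and of 7.77, 7.12 and 7.66 in the Axl-proficient ones. It rose by 2.30 (standard error 0.198, adjusted p = 1.45e-05), with solved counts of 1040 against 116. AKR1C3 and AKR1C1, further aldo-keto reductases, rose by 1.39 (adjusted p = 0.00061) and 1.36 (adjusted p = 0.00176). These genes have near-identical copies, so that the counts of the single copies are uncertain. GCLM had levels of 9.94, 10.47 and 10.03 against 9.36, 8.83 and 9.27 and rose by 0.99 (adjusted p = 0.00472). In control cells, 3 of 34 members were higher and 7 lower without Axl, with a median of -0.31. An interaction was called for 14 of the 35 members. Of 33 genes of drug transport and drug metabolism, 8 rose and none fell (24.2% called), with a median of 0.23. CYP24A1, the enzyme that inactivates vitamin D, rose by 2.05 (adjusted p = 3.02e-06), ALDH1A1, which forms retinoic acid, by 1.49 (adjusted p = 6.27e-05), and CYP1B1, an oxidase of aromatic compounds, by 1.11 (adjusted p = 0.00533).

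**Figure D3:**
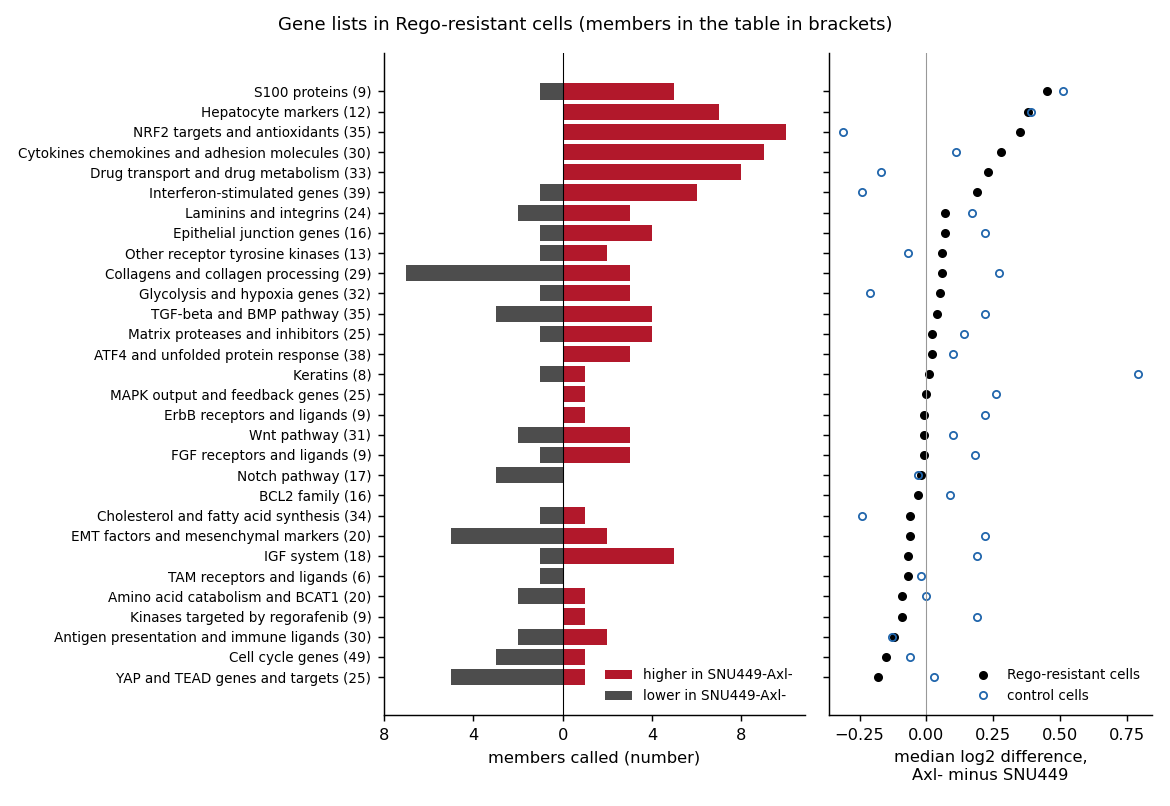
Left, number of members called higher (to the right) or lower (to the left) in Rego-resistant SNU449-Axl- cells for 30 gene lists, with the number of members in the table in brackets. Right, median log2 difference of the members in Rego-resistant cells (filled) and in control cells (open). NRF2 targets have 10 higher members and medians of 0.35 in resistant and -0.31 in control cells.

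Of 30 cytokines, chemokines and adhesion molecules in the table, 9 rose and none fell, with a median of 0.28. This is 30% of them, against 8.19% of all genes called and 4.31% called higher. IL18, an inflammatory cytokine, had levels of 8.50, 8.75 and 8.71 against 7.47, 7.21 and 7.26, without overlap, and rose by 1.34 (adjusted p = 6.27e-05). It was higher without Axl in control cells to a like degree (1.31, adjusted p = 0.00589). BIRC3, an inhibitor of apoptosis induced by NF-kB, rose by 1.07 (adjusted p = 0.00102). VCAM1, a vascular adhesion molecule, rose by 1.06 (adjusted p = 0.000277), with solved counts of 134 against 28.2. In control cells, VCAM1 fell by 3.86 without Axl (adjusted p = 0.00258), with a solved count of 1160 in control SNU449 cells. Of 39 interferon-stimulated genes, 6 rose and 1 fell (17.9% called), with a median of 0.19. GBP2, an interferon-induced GTPase, rose by 1.31 (adjusted p = 6.27e-05), BST2, which tethers virus particles, by 0.85 (adjusted p = 0.00151) and IFI44L by 0.58 (adjusted p = 0.032, and 0.0898 over all 12 libraries). IFITM2, a membrane protein that restricts virus entry, fell by 0.52 (adjusted p = 0.0318, and 0.34 over all 12 libraries). APOL1, an apolipoprotein, rose by 1.08 (adjusted p = 0.000291), whereas it fell by 3.07 in control cells (adjusted p = 0.000104).

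Of 16 BCL2 family genes none was called, and of 25 MAPK output genes 1 rose, the phosphatase gene DUSP5 by 0.84 (adjusted p = 0.0115). Of 49 cell cycle genes, 1 rose and 3 fell, which is 8.16% and close to the 8.19% of all genes. The median of this list was -0.15. The spindle protein gene TPX2 fell by 0.55 (adjusted p = 0.0301) and the ubiquitin-conjugating enzyme gene UBE2C by 0.51 (adjusted p = 0.0294), both on chromosome 20, whereas MCM4, a part of the replicative helicase, rose by 0.64 (adjusted p = 0.0318). The inhibitor CDKN1C fell by 0.44 (adjusted p = 0.0382). None of these 4 genes was called over all 12 libraries, with adjusted p-values of 0.116, 0.147, 0.119 and 0.0769. Of 9 S100 genes, which encode calcium-binding proteins, 5 rose and 1 fell, which is 66.7% called against 8.19% of all genes, with a median of 0.45. S100A3 rose by 0.83 (adjusted p = 0.00196) and S100A10 by 0.66 (adjusted p = 0.016), while S100A16 fell by 0.84 (adjusted p = 0.00132). In control cells, the median of the S100 list was 0.51, with 2 of 8 members called higher without Axl. An interaction was called for 2 S100 genes.

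The remaining genes with the largest changes came from varied functions. FYB1, an adaptor protein of immune cell signalling, had levels of 8.66, 8.97 and 8.33 against 6.15, 5.83 and 6.48 and rose by 2.5 (adjusted p = 5.2e-06), the largest rise among the genes with separate libraries. PLIN2, the coat protein of lipid droplets, rose by 2.13 (adjusted p = 6.82e-05). It lies on chromosome 9 in a window with a median of 0.40. PPP2R2C, a regulatory subunit of protein phosphatase PP2A, rose by 2.09 (adjusted p = 6.57e-07), PLAAT4 by 1.92 (adjusted p = 3.02e-06), the uroplakin gene UPK1B by 1.91 (adjusted p = 3.04e-06), the transcription factor gene HLF by 1.79 (adjusted p = 3.32e-06) and FA2H, a fatty acid hydroxylase, by 1.75 (adjusted p = 5.2e-06), the latter in a window with a median of -0.34. For PPP2R2C, UPK1B and HLF, resistant SNU449 cells had the lowest solved counts of the 4 groups, with 4.14, 27.3 and 3.8. On the lower side, PAGE1, a cancer-testis antigen, had levels of 6.07, 5.86 and 6.56 against 8.59, 8.80 and 8.10 and fell by 2.34 (adjusted p = 1.45e-05). PADI2, which converts arginine to citrulline in proteins, fell by 2.24 (adjusted p = 4.11e-05), and its solved counts were 121 against 1130. CDC42EP3, an effector of the GTPase CDC42, fell by 1.61 (adjusted p = 0.000413), TSTD1 by 1.57 (adjusted p = 1.45e-05), the long noncoding RNA LINC01444 by 1.28 (adjusted p = 0.000149) and the cadherin CDH4 by 1.25 (adjusted p = 6.27e-05).

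The same contrast in control cells shares no library with that in resistant cells. Of 14035 genes tested there, 599 were called (4.27%), 327 higher (2.33%) and 272 lower (1.94%) without Axl. Of 13352 genes in both tables, 1105 were called in resistant and 556 in control cells, and 155 in both. These are 14% of the resistant calls and 27.9% of the control calls. In 87 of the 155 genes the direction was the same, with 70 higher and 17 lower, and in 68 it was opposite. AXL itself fell by 3.81 in control cells (adjusted p = 1.6e-05), and its interaction of -0.23 was not called (adjusted p = 0.775). SERPINE2 and CYP24A1 rose in control cells as well, by 1.5 (adjusted p = 0.0168) and 1.58 (adjusted p = 0.00488). Opposite were 36 genes that rose in resistant and fell in control cells, among them FN1, SPP1, HLF, AKR1C3, GBP2, APOL1 and VCAM1. The other 32 fell in resistant and rose in control cells, among them COL1A1, CDH4, ID3, BMP4, IFITM2 and RNF43. In the interaction term over all 12 libraries, 916 of 15601 genes were called (5.87%), 455 with a higher (2.92%) and 461 with a lower value in resistant cells (2.95%), and 422 of the 1160 genes called in resistant cells were among them (36.4%).

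**Figure D4:**
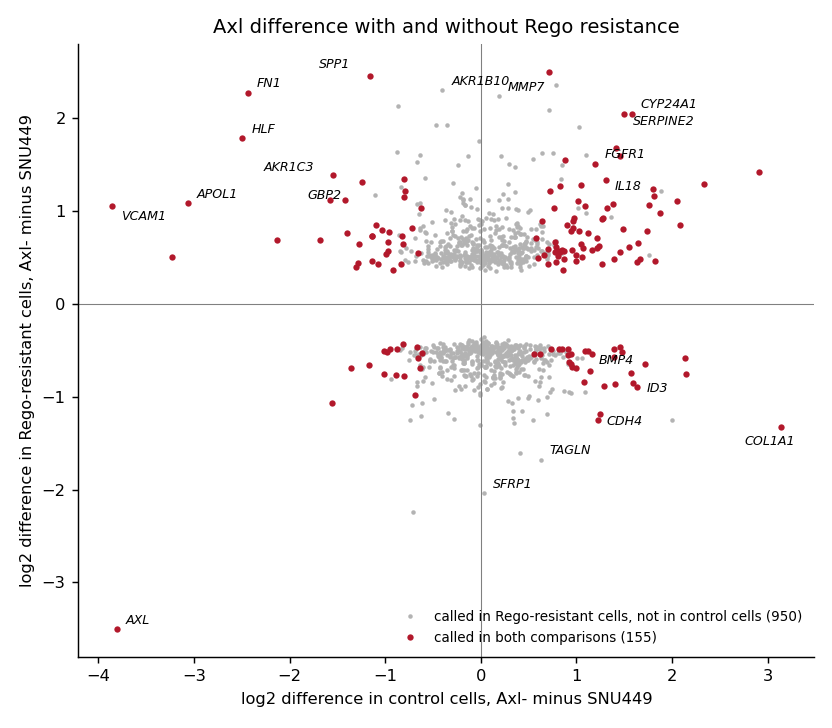
Log2 difference between SNU449-Axl- and SNU449 cells in control (x axis) and in Rego-resistant cells (y axis) for the genes called in Rego-resistant cells that are in both tables. Red points are the 155 genes called in both comparisons, grey points the genes not called in control cells. AXL lies at the lower left, FN1 and HLF at the upper left and COL1A1 at the lower right.

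Called genes were not spread evenly along the chromosomes. Of the genes with a mean normalized count of at least 30, 608 lie on chromosome 19, which carries AXL. Of these, 151 were lower and 7 higher in the Axl-deficient resistant cells, which is 26% called, and their median difference was -0.27. They made up 31.2% of all 484 lower calls of this strength, against 6.39% of the genes. In control cells, the median of the same chromosome was 0.26, thus of opposite sign. In windows of 25 neighbouring genes, 22 of 24 windows of chromosome 19 had a median below 0. AXL lay in the sixteenth of these, with a median of -0.11, and the window medians beyond it, from chr19:41431318-44033110 onwards, were between -0.29 and -0.49. Windows far before AXL were low as well. Windows 3 to 11 had medians between -0.24 and -0.41, whereas windows 13 to 15, just before that of AXL, had 0.07, -0.01 and -0.01. The AXL difference minus its window median was -3.39. Without chromosome 19, 601 genes were higher and 387 lower.

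Other regions deviated, too. The median was -0.20 on chromosome 20 (10 higher and 40 lower genes), 0.20 on chromosome 8 (55 higher and 5 lower) and 0.18 on chromosome 3 (46 higher and 3 lower). Of all 372 windows, 18 had a median below -0.3 and 6 above 0.3. Of the 18, 11 lie on chromosome 19, and others reached -0.39 on chromosome 16, -0.38 on chromosome 20 and -0.34 on chromosomes 6 and 7. The 6 lie on chromosomes 8 and 9, with medians of up to 0.40. The former held 450 genes with 158 lower and 3 higher calls, the latter 150 genes with 47 higher and 2 lower calls. Some named genes differed little from their neighbourhood. Minus the median of its window, the difference was -0.12 for TEAD2 and -0.10 for PLAUR, whereas it was -0.59 for DLL3, which lies on chromosome 19 as well, and 1.25 for BST2, which rose within a window of -0.41. For FGFR1 it was 1.23 and for NRG1 0.54. The part of the position in the results was not tested, and DNA copy number was not analysed here.

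**Figure D5:**
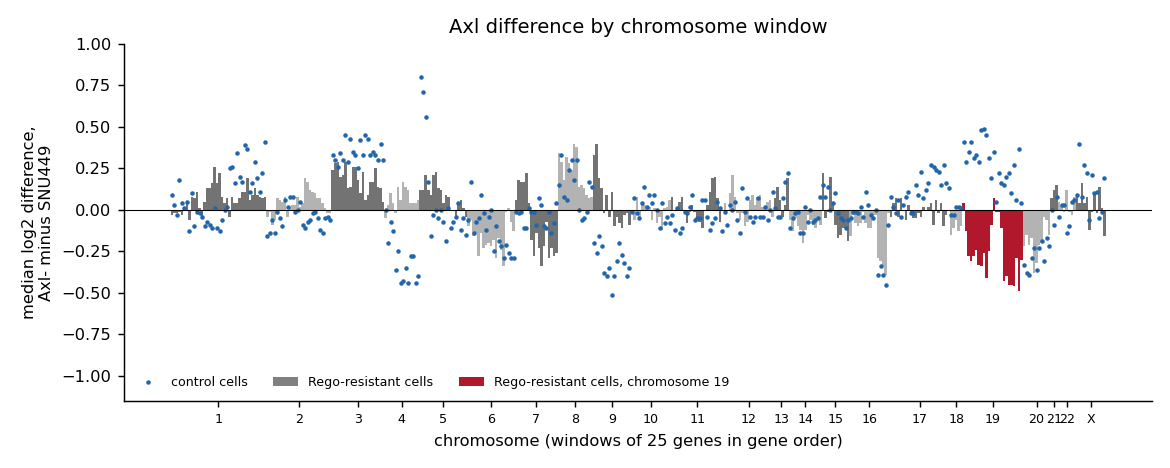
Median log2 difference (SNU449-Axl- minus SNU449, y axis) in windows of 25 neighbouring genes, in gene order along the chromosomes (x axis). Bars are Rego-resistant cells, with chromosome 19 in red, and blue points are control cells. Windows of chromosome 19 reach -0.49 in resistant cells and lie above 0 in control cells.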

How the data were processed

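The authors sequenced total RNA in 12 libraries (QuantSeq 3′ mRNA, forward), 3 for each of the 4 groups. Per the labels and the study's methods, reads were trimmed with cutadapt 4.0, aligned with STAR 2.5.3a to GRCh38 (GENCODE release 40) plus the sequences of spike-in RNAs, and counted per gene. Weakly expressed genes were removed by the authors. The authors then ran DESeq2 with the preparation date as a term. The deposited library values are whole numbers made by the authors from variance-stabilized values after removal of the preparation effect. These library values are thus a score computed by the authors before deposition, and not counts. They are not log values, but they are not proportional to counts either, since differences of weakly expressed genes are compressed. Each table was normalized separately. Depth per library is therefore unknown, and no counting interval is given. The mean normalized count per gene, deposited beside them, is a signal averaged by the authors over the libraries of a table. Deposited columns with the authors' own fold changes and p-values hold their comparisons and were not used.

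Samples were grouped by the labels. The log2 library values, with a pseudocount of 0, were fitted in R 4.3.3 with limma 3.58.1 (moderated test with trend), and the replicate number entered as a block. Spike-in RNAs (24) were not tested. A gene was called where its p, adjusted after Benjamini and Hochberg, was under 0.05. Same-numbered libraries of the 2 groups mirrored each other (r = -1 for each number over 5994 genes), as the mean of each number had been made equal, so that the SDs of both groups are equal and not independent. The interaction was fitted on a 12-library table. Group means in counts were solved from the authors' means of the 6 pair tables after bringing these to 1 scale. Named genes were AXL, genes the study is about, the 15 largest rises and 15 largest falls with separate libraries, and up to 3 called members per list and direction. Members and lists were chosen with earlier results of these data known. Alternatives were no block, a pseudocount of 1, a mean count of at least 10, a common upper quartile, centring on the spike-ins, no trend, leaving out each replicate number and the 12-library fit. The fit was tested on simulated data. Start windows came from RefSeq (GRCh38.p14).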

Additional observations from a re-analysis of the deposited data

Results flagged for a closer look

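The Axl difference was set against that of the control cells by the interaction of Axl loss and resistance, fitted with limma in the 12-library table. With Benjamini-Hochberg adjustment, 916 genes differed in this way, and the values below are log2 differences in resistant minus those in control cells. Groups of 3 libraries were not examined for single outlying libraries.

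Among receptors and ligands the terms were -1.3 for GAS6, -1.02 for ERBB4, -2.31 for AREG, -2.25 for EREG, 1.45 for FGFR4, -0.96 for FGF18, 2.41 for ROR2, -1.80 for EPHB4 and -7.45 for IGFBP5. Among genes of YAP, matrix, adhesion and proteolysis they were -2.25 for CCN2, -1.60 for TPM1, 4.71 for FN1, -4.78 for COL1A1, 3.44 for DSP, -1.14 for MARVELD2, -1.31 for ITGA5, 2.11 for MMP7, -1.74 for PLAUR, 3.72 for SPP1 and -3.06 for CDH4.

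Hepatocyte, NRF2 and drug metabolism genes had terms of 2.39 for FGB, 3.36 for AKR1B10, 2.99 for AKR1C3, 1.95 for AKR1C1, 1.36 for GCLM, 1.79 for ALDH1A1 and 2.71 for CYP1B1. For immune genes they were 5.91 for VCAM1, 3.04 for GBP2, 1.3 for BST2, -2.11 for IFITM2, 4.75 for APOL1 and -1.20 for NECTIN2. In the Wnt, BMP, TGF-beta and Notch pathways they were -2.80 for SFRP1, -1.77 for RNF43, 1.62 for SFRP4, -2.53 for GREM1, -3.02 for ID3, -2.30 for BMP4, 0.99 for TGFBR3, -3.62 for DNER and -2.70 for HES1.

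The remaining terms were 2.71 for FYB1, 3.18 for PLIN2, 2.38 for PPP2R2C, 3.08 for PLAAT4, 5.75 for HLF, 2.83 for FA2H, -2.83 for PAGE1, -2.08 for CDC42EP3, -2.25 for TSTD1, -2.35 for LINC01444, -1.07 for S100A16, -2.15 for EGLN3, 1.31 for SLC2A3, 2.23 for VLDLR and 1.27 for KYNU. The lowest number of such genes was 112, without replicate 2, and the highest with a replicate number left out was 745, without replicate 3.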

How the results depend on the processing

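The count of 1160 genes in resistant cells changed by less than 1.5 times with a pseudocount of 1, a mean count of at least 10, a common upper quartile and no trend. Without the replicate block it was 4025 (2090 higher, 1935 lower), centred on the spike-ins 7761 (7643 higher, 118 lower), and in the 12-library fit 679 (381 higher, 298 lower), of which 666 were among the 1160. Leaving out a replicate number gave 0 genes in either direction in the 2-group fit, and from 104 to 466 in the 12-library fit (80 to 273 higher, 24 to 193 lower), with 145 (112 higher, 33 lower) without replicate 1. On data simulated with mirrored libraries, the fit without the replicate block called more unchanged genes than that with it. The replicate number pairs the libraries through the deposited values themselves. In control cells the 599 calls became 3751 without the replicate block (1982 higher, 1769 lower), 1335 centred on the spike-ins (1189 higher, 146 lower), 1160 in the 12-library fit (628 higher, 532 lower) and 0 without any replicate number. At a common upper quartile, 423 were lower. The 916 interaction terms became 1827 without the replicate block (901 higher, 926 lower) and 112 to 745 without a replicate number (67 to 376 higher, 45 to 369 lower). Centred on the spike-ins, 175 were lower. The cause of these changes was not tested, except that leaving out a number leaves fewer libraries.

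Of 108 genes examined singly, 85 kept their side of the threshold in the 12-library fit and 23 lost their call, and 103 kept it without the replicate block. DDIT4 lost its call without it (adjusted p = 0.0527), and 4 TAM, ErbB or FGF genes not called in the main fit gained one. With centring on the spike-ins, ERBB3, MERTK and AREG gained a call and 17 genes lost theirs. Signs turned for some uncalled genes, among them GAS6 and ERBB4, which were at -0.33 and -0.35 in the main fit. Centred on the spike-ins, the log2 difference was 0.03 for GAS6, 0.35 for TYRO3, 0.31 for EGFR, 0.31 for ERBB2, 0.01 for ERBB4, 0.35 for EREG and 0.28 for FGF2. With a replicate number left out it lay between -0.06 and 0.08 for TYRO3, -0.18 and 0.05 for EGFR and -0.06 and 0.07 for EREG, each highest without replicate 3. In the 12-library fit without replicate 3 it was 0.12, 0.06 and 0.10, and without replicate 1 EGFR was at 0.00. The difference of AXL lay between -3.66 and -3.42 with a number left out (adjusted p = 0.207 to 0.391), and between -4.62 and -4.52 in the 12-library fit (highest adjusted p 4.92e-05).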

Other observations

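Of 32 glycolysis and hypoxia genes in the table, 3 rose and 1 fell, which is 12.5% called against 8.19% of all genes. EGLN3, a prolyl hydroxylase of the hypoxia factor HIF, had levels of 6.02, 5.76 and 6.34 in the Axl-deficient and of 7.25, 7.52 and 6.93 in the Axl-proficient libraries. The groups did not overlap, and EGLN3 fell by 1.19 (adjusted p = 0.000894). SLC2A3, the glucose transporter GLUT3, rose by 1.03 (adjusted p = 0.000378). DDIT4, a stress-induced inhibitor of mTOR, rose by 0.66 (adjusted p = 0.0432, and 0.152 over all 12 libraries). Of 38 genes of ATF4 and the unfolded protein response, 3 rose and none fell (7.89% called). One of them was VLDLR, a lipoprotein receptor, with a rise of 0.82 (adjusted p = 0.00178) in a window of chromosome 9 with a median of 0.33. Of 34 genes of cholesterol and fatty acid synthesis, 1 rose and 1 fell (5.88% called).

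Of 20 genes of amino acid catabolism, 1 rose and 2 fell (15% called). KYNU, which cleaves kynurenine, rose by 0.87 (adjusted p = 0.00639). BCAT2, the mitochondrial branched-chain aminotransferase, fell by 0.47 (adjusted p = 0.0357, and 0.183 over all 12 libraries). Minus the median of its window on chromosome 19, the difference of BCAT2 was -0.02. Of 30 genes of antigen presentation and immune ligands, 2 rose and 2 fell (13.3% called). The genes that fell were PVR and NECTIN2, ligands of receptors on natural killer and T cells, by 0.64 (adjusted p = 0.0371, and 0.205 over all 12 libraries) and 0.65 (adjusted p = 0.00683). Both lie on chromosome 19 in a window with a median of -0.40, and their differences minus this median were -0.24 and -0.26.

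2 lists were added after seeing the data, and 8.19% of all genes were called. On the mitochondrial genome, 1 of 13 genes was higher and 2 lower (23.1% called), with a median of -0.22 (control cells 0.46). Of the cytosolic ribosomal proteins, 4 of 81 were higher and 9 lower (16% called), with a median of 0.08. All 9 lower ribosomal genes lie on chromosome 19, which holds 12 of the 81 and was lower along most of its length.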
